A study of Mus musculus with 20 samples.

Results

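The genes described here encode enzymes of the mevalonate and sterol pathway, by which cells make cholesterol from acetyl-CoA. Clones on either array design annotated to 1 of 10 such genes were taken, in both tissues, with Sqle (squalene epoxidase) kept apart as a reference. In pathway order these were Hmgcs1, Mvd, Idi1, Ggps1 and Fdft1 up to squalene, then Lss, Msmo1, Nsdhl, Dhcr7 and Lbr after it. All 10 genes were found, with 13 clones of 15360 in all. The first design held 9 clones of 9 genes and the second 4 clones of 3 genes, namely 1 of Ggps1, 2 of Msmo1 and 1 of Lbr. Ggps1 and Lbr were thus measured on both designs and Msmo1 on the second alone.

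The arrays compared total RNA of 2 mouse lines on spotted cDNA, in liver and in brown adipose tissue, the fat depot that burns lipid for heat. The F line was selected for fatness, and the Fob3b line is congenic: on the F background it carries a chromosome 15 segment, the Fob3b obesity locus, from a lean line. Outside that segment all samples share the F background. Each line and tissue was represented by 2 RNA pools, and the number of animals in a pool, their age, sex and diet were not given in the sources used here. Pools of equal number were paired across the lines (pool pairs 1 and 2), each hybridised with the dyes both ways. On the first design 4 such arrays were liver and 4 brown adipose tissue, and 2 self-self arrays carried a single liver pool in both channels. On the second 4 were liver and 2 brown adipose tissue, from pool pair 1. There, 2 liver arrays crossed the pool numbers between lines, and 2 set pool 2 of a line against its pool 1.

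Each value is a log2 ratio of Fob3b over F after removal of the array median, for a clone averaged over its 2 spots. The 2 dye orientations of a pool pair were averaged, which left 2 pool pairs (n = 2) for each tissue of a design. Brown adipose tissue on the second design had 1. The p values rest on a spread between pools, not animals. Errors are moderated standard errors (SE) of limma with Benjamini-Hochberg adjustment over all 7680 clones of a design. A clone was called at an adjusted p under 0.05. limma drew most of each clone's spread from all clones of the design, not from its own pool pairs. Prior degrees of freedom were 8.76 against 2 residual ones on the first design, and 7.63 against 1 on the second. On the first design both tissues shared 1 spread per clone. Which dye is the numerator is not stated in the labels. Red over green was assumed, so that a positive value means more RNA in Fob3b, and the other way round every sign here would turn. Ratios carry no level, so enzymes cannot be ranked by abundance, and the labelled tissues could not be checked against their markers: of 7 brown adipocyte markers the first design held 0 and the second 1. In pooled tissue, fewer cells of a type and less RNA per cell cannot be told apart.

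The early enzymes make HMG-CoA and, through mevalonate, the isoprenoid units, and join them to squalene, the first molecule committed to sterols. The late enzymes close squalene to lanosterol and trim and reduce that ring system to cholesterol. In textbook accounts the early and late genes are switched on together by SREBP-2 when membrane cholesterol is low, with NF-Y and Sp1 as partner factors on the promoters. Liver makes cholesterol for lipoproteins and bile acids, and adipose tissue makes little of it and stores much.

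The stretches before the transcript starts are shown because these factors act there. The RefSeq promoter table (build GRCm38.p6) held 11 starts for 9 of the 10 genes, 3 of them for Dhcr7. Fdft1 had no entry. The 9 genes lie on chromosomes 1, 7, 8, 10, 13 and X. The 250 bases before each start were searched on both strands for an SREBP site (TCACNCCAC), an NF-Y site (CCAAT) and an Sp1 site (GGGCGG), and matches are in capitals below. The first sequence, of the early gene Hmgcs1, is chr13:119690101-119690350 on the plus strand. The second, of Lss just after squalene, is chr10:76531355-76531604 on the plus strand. The third, of Msmo1, is chr8:64733579-64733828, read on the minus strand.
Hmgcs1: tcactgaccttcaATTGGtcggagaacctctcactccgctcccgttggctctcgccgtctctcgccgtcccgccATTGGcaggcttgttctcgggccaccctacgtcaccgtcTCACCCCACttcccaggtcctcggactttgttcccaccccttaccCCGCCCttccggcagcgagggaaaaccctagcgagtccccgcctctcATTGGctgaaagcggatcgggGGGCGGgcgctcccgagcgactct
Lss: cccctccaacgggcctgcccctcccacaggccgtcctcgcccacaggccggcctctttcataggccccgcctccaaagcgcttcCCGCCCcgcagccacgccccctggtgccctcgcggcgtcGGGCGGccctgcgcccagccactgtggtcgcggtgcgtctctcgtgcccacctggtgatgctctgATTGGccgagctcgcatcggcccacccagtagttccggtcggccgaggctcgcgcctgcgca
Msmo1: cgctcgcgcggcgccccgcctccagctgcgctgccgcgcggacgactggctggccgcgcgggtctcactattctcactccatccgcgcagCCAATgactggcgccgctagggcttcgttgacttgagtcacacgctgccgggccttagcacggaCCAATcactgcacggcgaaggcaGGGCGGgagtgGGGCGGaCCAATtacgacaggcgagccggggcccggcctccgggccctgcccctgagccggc
Hmgcs1 held the SREBP match, TCACCCCAC at bases -137 to -129 from the start, the 1 such match in the 11 windows. Of all 32851 promoters listed, 1.05% held one. An NF-Y match was in 9 of the 11 windows, against 33.8% of all promoters, and each of the 9 genes had it in at least 1 window. An Sp1 match was also in 9 of 11, against 32.7%, with Ggps1 and the middle start of Dhcr7 lacking it. No matches overlapped. Msmo1 and Ggps1, like Hmgcs1, had 3 NF-Y matches each, and Lss had 1, at bases -62 to -58. These letters are a description of the windows, not of binding, and base composition was not matched between the enzymes and the other promoters.

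**Figure D1:**
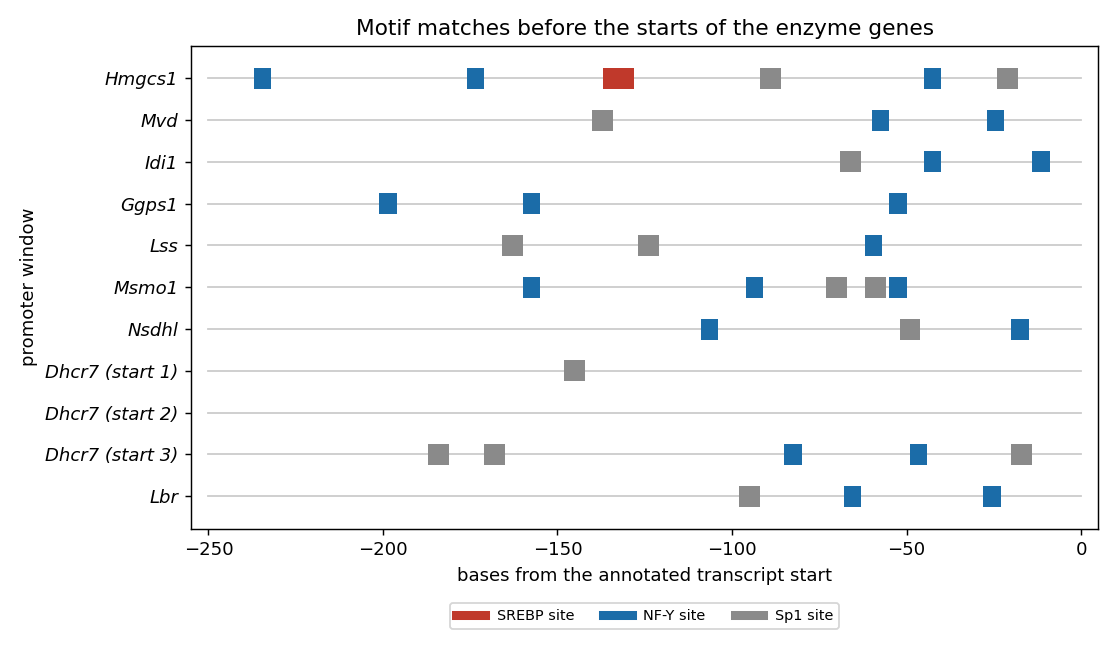
Positions of motif matches in the 250 bases before each annotated start of the 9 enzyme genes with a promoter entry (x axis, bases from the start; 1 line per window, 3 for Dhcr7). Blue bars mark NF-Y, grey bars Sp1 and the red bar the SREBP match of Hmgcs1; blue bars stand in 9 of the 11 windows.

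In liver on the first design no enzyme was called, and the 2 pool pairs gave the enzymes medians of opposite sign, -0.34 in pool pair 1 and 0.45 in pool pair 2. Averaged, 5 of the 9 genes were positive, with a median of 0.02 (-0.07 with no centring), against 44.9% positive and a median of -0.02 over all 3838 genes. The lowest mean was -0.26 for Hmgcs1 and the highest 0.37 for Mvd. limma called 0 of 9 clones here and 0% of all clones (0 of 7680, with 253 at an unadjusted p under 0.05). None of the 9 had 1 sign on all 4 arrays, which 8.24% of all clones did.

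1 array set the liver values apart. On the array of pool pair 1 with Fob3b in green, 8 of the 9 enzymes were negative with a median of -1.0004, while 50.0% of all clones were positive there. With Fob3b in red, the same pools gave 6 of 9 positive and a median of 0.15. In pool pair 2 the medians were 0.02 with Fob3b in red and 0.08 with Fob3b in green. Over all clones the deposited ratios of the 2 orientations correlated at r = -0.16 in pool pair 1 and r = 0.29 in pool pair 2, and a pure line difference would give a negative r. Why this array differed was not tested. Its channel labels could not be checked without intensities, and exchanged channels would turn its sign. Without it the median of the 9 genes in liver was 0.33 in place of 0.02. Leaving out the others moved it as well, to -0.26 without the other array of pool pair 1, and to -0.10 and -0.11 without either array of pool pair 2 (Fob3b in red, then green).

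The same 9 clones had a higher median in brown adipose tissue, and none was called. Here 6 of the 9 genes were positive, with a median of 0.46, against 59.3% positive and a median of 0.03 over all genes. With no centring these medians were 0.73 and 0.30. The study itself named the cholesterol pathway from these arrays, so this count is no independent evidence of a direction. Pool pair 1 had a median of 0.70 over the enzymes and pool pair 2 one of 0.14. The deposited ratios of the 2 orientations correlated over all clones at r = 0.23 in pool pair 1 and r = 0.60 in pool pair 2. A pure line difference would give a negative r here too. On the second design r was -0.08 and -0.40 in liver and -0.47 in brown adipose tissue. limma called 0 of 9 clones and 0% of all clones (65 had an unadjusted p below 0.05), the smallest adjusted p of any clone being 0.283. On all 4 arrays 4 of 9 enzymes had 1 sign, against 5.85% of all clones: Idi1, Lss and Dhcr7 positive and Hmgcs1 negative. Genes up to squalene had a median of 0.46 (3 of 5 positive) and genes after it one of 0.37 (3 of 4 positive).

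Skeletal muscle lies against this depot, and its markers stood off 0 there. Of 9 muscle markers listed, the first design held 2, and both were negative in brown adipose tissue, with -0.58 for Tpm2 and -0.47 for Actn3, and stood near 0 in liver, at -0.05 and -0.04. The 2 on the second design, Tpm2 and Mylpf, had 0.73 and 0.69 in brown adipose tissue, the opposite sign. Of 9 hepatocyte markers the first design held 4, all negative in liver with a median of -0.28, namely Alb at -0.74, Apob at -0.39, Apoa1 at -0.17 and Ttr at -0.15. The 4 ran from -0.17 to -0.05 in brown adipose tissue. The macrophage marker Lyz2, 1 of 7 listed, had -0.44 in liver and -0.01 in brown adipose tissue, and the adipocyte marker Lpl, also 1 of 7, had -0.12 and -0.25. limma called 0 of these first-design genes. Alb and Lyz2 in liver, and Tpm2 and Actn3 in brown adipose tissue, had an unadjusted limma p under 0.05. On the second design 2 of 5 erythroid markers had a median of -0.14 in each tissue, and the 1 of 7 brown adipocyte markers, Elovl3, had 0.02 in liver and -0.06 in brown adipose tissue. The part of these cell types in the enzyme values was not tested.

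**Figure D2:**
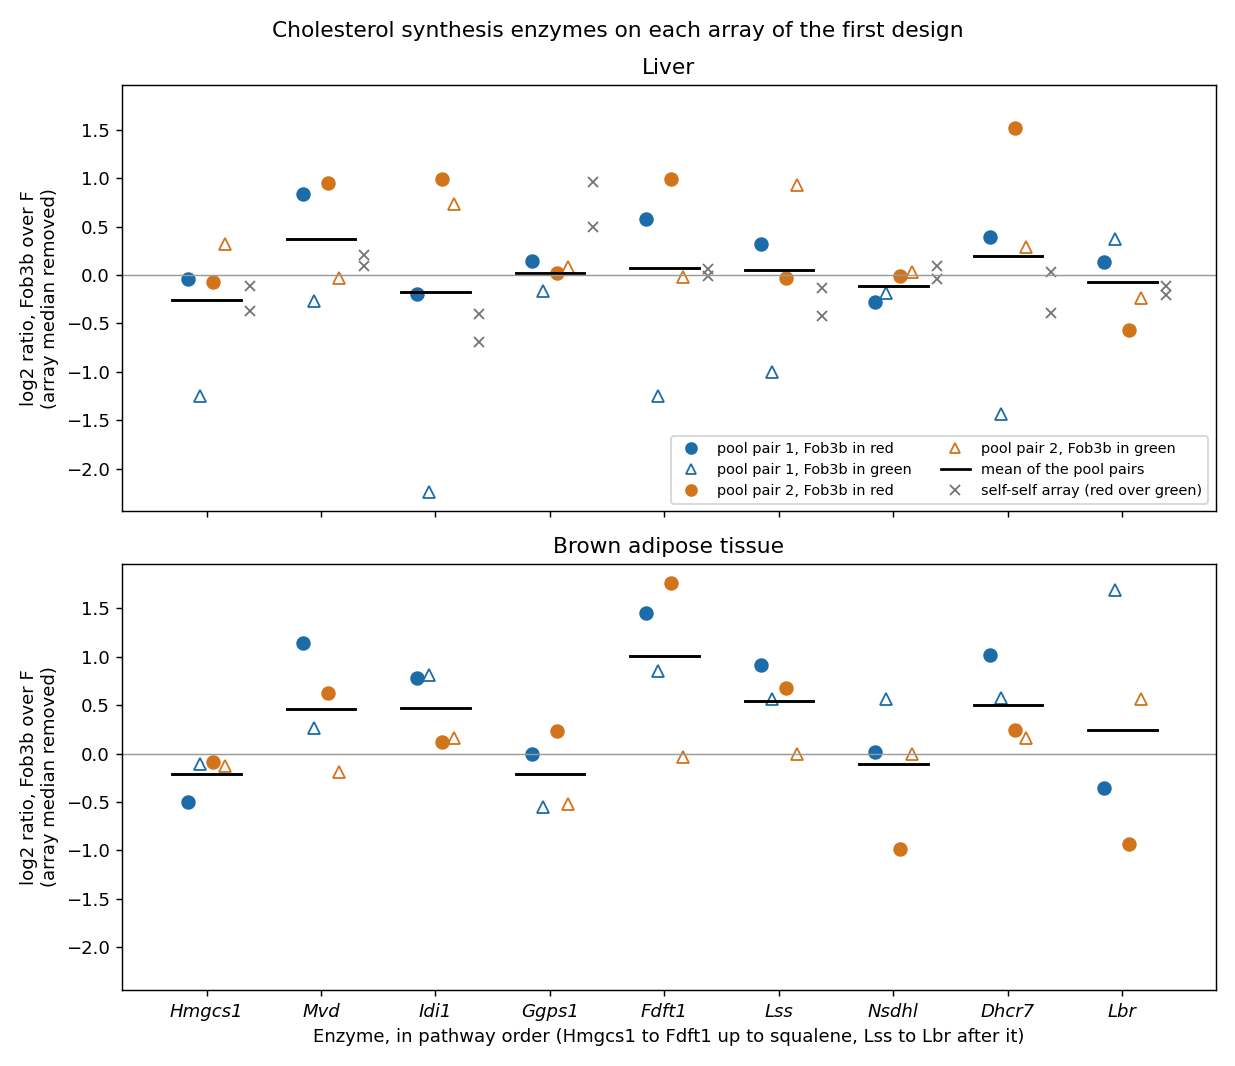
log2 ratios of Fob3b over F (y axis) of the 9 enzymes on the first design (x axis, pathway order), in liver (top) and brown adipose tissue (bottom). Each point is 1 array, filled with Fob3b in red and open with Fob3b in green, blue for pool pair 1 and orange for pool pair 2; bars are means of the 2 pool pairs and crosses the 2 self-self arrays. In liver the open blue triangles reach -2.24 for Idi1, and in brown adipose tissue 3 of the 4 Fdft1 arrays lie between 0.85 and 1.76.

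Hmgcs1 encodes the cytosolic HMG-CoA synthase, which makes the substrate of the rate-limiting reductase. In brown adipose tissue its 4 arrays read -0.49 and -0.11 in pool pair 1 (Fob3b in red, then green) and -0.09 and -0.13 in pool pair 2. All lay below 0, with the first well apart from the others. With no centring, where the median gene stood at 0.30, the mean was 0.07. The mean of -0.21 (SE 0.22, n = 2, adjusted p 0.99997, limma) did not pass. In liver the arrays, in the same order, read -0.05, -1.25, -0.07 and 0.32, with a mean of -0.26 (SE 0.22). That liver mean rested on the array with Fob3b in green of pool pair 1 and was 0.04 without it. After centring and with all arrays, Hmgcs1 had negative means in both tissues, as did Nsdhl. Any link to its SREBP match was not tested.

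Mvd, mevalonate diphosphate decarboxylase, makes isopentenyl diphosphate, the building block of all later steps. Its liver arrays read 0.84 and -0.27 in pool pair 1 and 0.95 and -0.03 in pool pair 2. In brown adipose tissue they read 1.14 and 0.26, then 0.63 and -0.19. In each of the 4 pool pairs the array with Fob3b in red was the higher one. Means were 0.37 (SE 0.20) in liver and 0.46 (SE 0.20, unadjusted p 0.0447, adjusted p 0.99997, limma, n = 2) in brown adipose tissue. Mvd had the highest liver mean of the 9 enzymes, and its means in the 2 tissues differed by 0.09 (SE 0.29, 95% interval -0.54 to 0.73).

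Idi1, the isomerase that turns isopentenyl into dimethylallyl diphosphate, gave opposite liver values in the 2 pool pairs. The liver arrays read -0.20 and -2.24 in pool pair 1 and 0.99 and 0.73 in pool pair 2, so that the pool pairs did not overlap and averaged -1.22 and 0.86. The liver mean was -0.18 (SE 0.38, n = 2), and the SD between pool pairs was 1.47. Left without pool pair 2, liver Idi1 stood at -1.22, and without pool pair 1 at 0.86, each from 1 pool pair. Its liver sign thus depended on which pool pair was left in.

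In brown adipose tissue the Idi1 arrays were 0.78 and 0.81 in pool pair 1 and 0.12 and 0.17 in pool pair 2. Both orientations gave nearly the same value within each pool pair, and the pool pairs differed in size but not in sign. The mean was 0.47 (SE 0.38, n = 2, limma adjusted p 0.99997). The self-self arrays, on which no line differs, gave Idi1 -0.69 and -0.40 of red over green.

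Ggps1, geranylgeranyl diphosphate synthase, draws farnesyl diphosphate away from sterols into the lipid anchors of small GTPases. On the first design its liver arrays read 0.15, -0.17, 0.02 and 0.08, with a mean of 0.02 (SE 0.19). Brown adipose arrays read -0.01 and -0.55 in pool pair 1 and 0.24 and -0.52 in pool pair 2, averaging -0.21 (SE 0.19, limma adjusted p 0.99997), or 0.06 with no centring. Its self-self arrays stood at 0.96 and 0.50 of red over green, larger in size than its mean in either tissue. The Ggps1 clone of the second design gave -0.04, 0.15, -0.10 and 0.02 in liver, with a mean of 0.01 (SE 0.08, 95% interval -0.18 to 0.20), and -0.05 and 0.14 in brown adipose tissue. Liver means were thus within 0.02 of 0 on both designs.

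Fdft1 encodes squalene synthase, which joins 2 farnesyl diphosphates in the first step that leads only to sterols, and had the largest brown adipose mean of the enzymes. Its brown adipose arrays read 1.45 with Fob3b in red and 0.85 with Fob3b in green in pool pair 1, and 1.76 and -0.03 in pool pair 2. Of the 4 arrays 3 were high and 1 lay at about 0. The mean was 1.01 (SE 0.23, 95% interval 0.50 to 1.52, n = 2 pool pairs), a 2.01-fold difference and the 4th largest mean by size of 7680 clones. limma gave an unadjusted p of 0.00114 and an adjusted p of 0.99997, so Fdft1 was not called. Fitted on brown adipose tissue alone it was called, with an adjusted p of 0.00515 (limma) beside 3 other clones. The mean was unchanged at 1.01. That fit has 1 residual degree of freedom, so limma takes the spread mainly from all clones, not from this clone. The mean was 0.99 with each printing block centred, and the self-self arrays stood at -0.01 and 0.06.

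Liver Fdft1 read 0.58 and -1.25 in pool pair 1 and 0.996 and -0.02 in pool pair 2. Both green-labelled arrays lay below both red-labelled ones, and the mean was 0.07 (SE 0.23, adjusted p 0.99998, limma). The difference between tissues, brown adipose minus liver, was 0.93 (SE 0.33, 95% interval 0.22 to 1.65, limma unadjusted p 0.0155, adjusted p 0.99956). It did not pass. Without the liver array that stood apart the liver mean was 0.53 and the difference 0.48.

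Lss, lanosterol synthase, closes the epoxide of squalene made by Sqle into the first sterol ring. Brown adipose arrays read 0.92 and 0.56 in pool pair 1 and 0.68 and 0.0014 in pool pair 2. All 4 were positive, but the last by far less than the 2 spots of a clone usually differ, the median spot difference of the enzymes being 0.108 on this design. The mean was 0.54 (SE 0.23, unadjusted p 0.0396, adjusted p 0.99997, limma, n = 2), the 40th by size. In liver Lss read 0.32, -1.0004, -0.03 and 0.93, with a mean of 0.05 (SE 0.23). Its neighbour in the pathway, Sqle, averaged 0.26 (SE 0.31) in liver and 0.54 (SE 0.31, limma adjusted p 0.99983 over genes) in brown adipose tissue.

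Nsdhl, a sterol dehydrogenase that works with Msmo1 to remove methyl groups from the sterol nucleus, lay close to 0 in liver, at -0.28, -0.18, -0.01 and 0.03 (mean -0.11, SE 0.23). Its brown adipose arrays read 0.01 and 0.57 in pool pair 1 and -0.99 and 0.00064 in pool pair 2. The pool pairs averaged 0.29 and -0.49, and the overall mean was -0.10 (SE 0.23), or 0.17 with no centring. Of the enzymes after squalene on this design, Nsdhl was the 1 with negative means in both tissues after centring.

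Dhcr7, 7-dehydrocholesterol reductase, carries out the last reduction to cholesterol. In brown adipose tissue it read 1.01 and 0.57 in pool pair 1 and 0.25 and 0.16 in pool pair 2, all positive, with pool pair 1 above pool pair 2. The mean was 0.50 (SE 0.30, n = 2, limma adjusted p 0.99997), the 49th by size of 7680. Liver arrays read 0.39 and -1.43, then 1.52 and 0.29, with a mean of 0.19 (SE 0.30) and pool pairs of opposite sign at -0.52 and 0.90.

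Lbr encodes the lamin B receptor, an inner nuclear membrane protein that is also a sterol reductase. Its first-design clone gave the largest dye part of the enzymes in brown adipose tissue by size, -1.02 in pool pair 1, where the arrays read -0.35 and 1.69, with -0.93 and 0.56 in pool pair 2. There the arrays with Fob3b in red were all negative and those with Fob3b in green all positive, and the mean was 0.24 (SE 0.25). In liver it read 0.14, 0.37, -0.57 and -0.24 (mean -0.07, SE 0.25). The second-design clone stood at -0.43, -0.0045, 0.03 and -0.08 in liver, with a mean of -0.12 (SE 0.09, limma adjusted p 0.753), and at 0.09 and 0.16 in brown adipose tissue. On both designs the liver mean was negative and not called.

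A dye-swapped pair splits into a line part, the mean of both arrays, and a dye part, their difference, red minus green, divided by 2. In brown adipose pool pair 1 the dye part was the larger one for 1 of 9 enzymes (Lbr), against 57% of all clones. In pool pair 2 it was larger for 5 of 9, against 73.1%. In liver it was larger for 5 of 9 in each pool pair, against 43% and 60.1%. The dye parts of Fdft1 were 0.91 and 0.51 for the liver pool pairs and 0.30 and 0.90 for the brown adipose ones. Those of Mvd ran from 0.41 to 0.55, and those of Dhcr7 were also positive in all 4 pool pairs. Nsdhl and Lbr had 4 negative dye parts each. Averaging the orientations removes a dye bias common to both arrays. An error of 1 array enters both parts and stays in the mean.

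**Figure D3:**
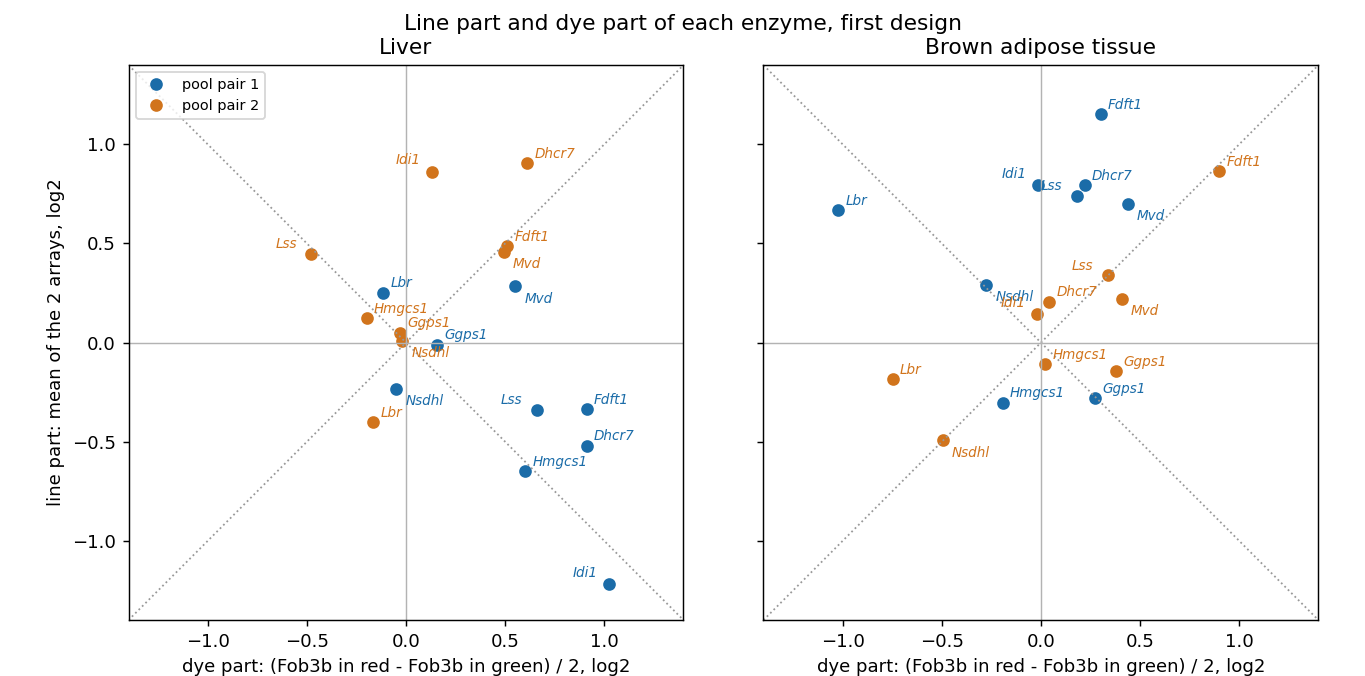
Line part (y axis, mean of the 2 dye orientations, log2) against dye part (x axis, Fob3b in red minus Fob3b in green, divided by 2, log2) for the 9 enzymes of the first design, blue for pool pair 1 and orange for pool pair 2. On the dotted diagonals both parts are equal in size; in brown adipose pool pair 1 all enzymes but Lbr lie nearer to the vertical axis, and Mvd stands right of 0 and Lbr left of it in every pool pair.

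Set against the self-self arrays, 6 of 9 enzymes in brown adipose tissue had a mean larger in size than both self-self ratios, and 14.9% of all clones did. They were Mvd, Fdft1, Lss, Nsdhl, Dhcr7 and Lbr. In liver these were Mvd, Fdft1 and Nsdhl, 3 of 9, against 20.1% of clones. Small means passed where the self-self ratios were small. Nsdhl in brown adipose tissue had -0.10 against ratios of 0.09 and -0.04, and Fdft1 in liver 0.07 against -0.01 and 0.06. The self-self arrays are of liver RNA, and each is a single array, while a mean rests on 4.

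Between the tissues, no difference was called for the enzymes (0 of 9, and 0% of 7680 clones, with 220 at an unadjusted p under 0.05). Brown adipose minus liver was positive for 8 of 9 genes, with a median of 0.31, against 60.5% and 0.06 over all genes. Ggps1 was the exception at -0.23 (SE 0.27), though with no centring it had 0.13, and with printing blocks centred Nsdhl was negative as well at -0.20. After Fdft1 the largest were Idi1 at 0.65 (SE 0.54) and Lss at 0.49 (SE 0.33, 95% interval -0.23 to 1.21). Without liver pool pair 2 the difference was 1.34 for Fdft1 and 1.69 for Idi1. Without liver pool pair 1 it was 0.52 for Fdft1 and -0.39 for Idi1. Each of these rests on 1 liver pool pair, so the spread between liver pools is not in it. The median difference moved with several leave-outs. It was 0.04 without the liver array that stood apart, 0.16 without the pool pair 2 liver array with Fob3b in green, 0.01 without brown adipose pool pair 1, 0.60 without brown adipose pool pair 2 and -0.11 without liver pool pair 1. With no centring it was 0.67, against 0.42 for the median gene.

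**Figure D4:**
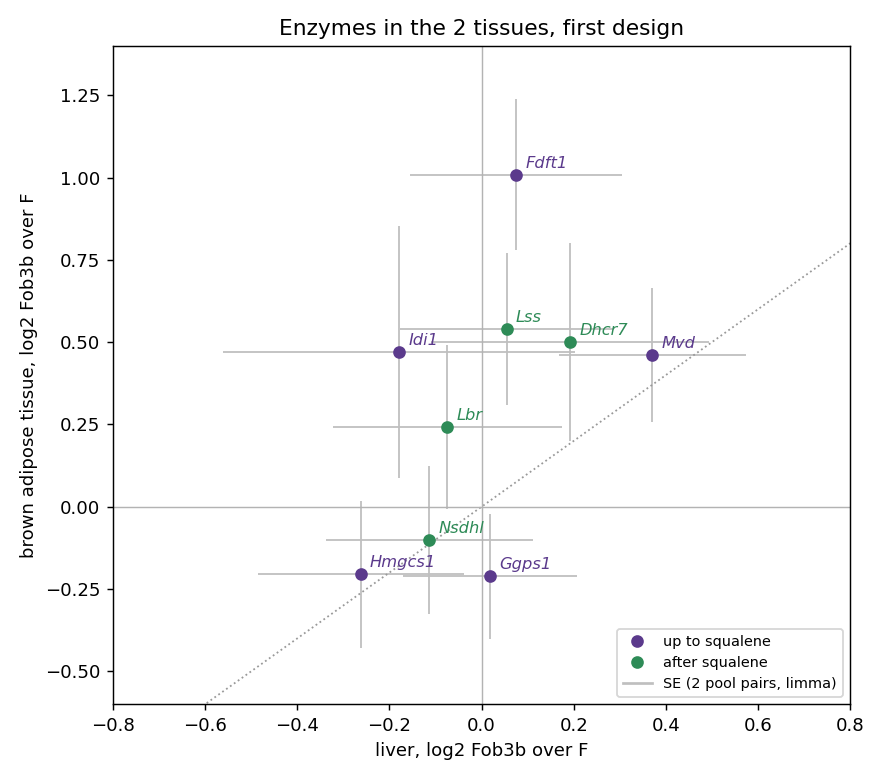
Mean log2 ratio of Fob3b over F in liver (x axis) and brown adipose tissue (y axis) of the 9 enzymes on the first design, purple up to squalene and green after it, with SE bars (limma, 2 pool pairs per tissue). Fdft1 stands highest at 1.01 in brown adipose tissue and 0.07 in liver; points above the dotted diagonal, 8 of 9, had the larger value in brown adipose tissue.

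Msmo1, the methylsterol monooxygenase that starts the removal of methyl groups from the sterol nucleus, was measured by 2 clones of the second design, and these differed. In liver clone 23191 read 0.24 and 0.56 in pool pair 1 (Fob3b in red, then green) and 1.15 and 1.17 in pool pair 2. All 4 were positive, and pool pair 2 lay above pool pair 1. The mean was 0.78 (SE 0.15, 95% interval 0.44 to 1.13, n = 2), a 1.72-fold difference and the largest mean by size of all 7680 clones there. limma gave an unadjusted p of 0.000711 and an adjusted p of 0.0895, short of the threshold, while 29 clones (0.378%) passed and 0 of the 4 enzyme clones did. Without the pool pair 1 array with Fob3b in red the limma adjusted p was 1.11e-06 (122 clones called), and without that of pool pair 2 it was 0.00345 (202 called), the means being 0.86 and 0.79. Without either array with Fob3b in green it was not called, at limma adjusted p values of 0.232 and 0.439. These fits have 1 residual degree of freedom, so limma takes the spread mainly from all clones, not from this clone. In the first of them the pool pairs of this clone stood at 0.56 and 1.16. A pool pair left with 1 array also no longer cancels the dye.

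Clone 17442 of Msmo1 read 0.07 and 0.04 in liver pool pair 1 and 0.43 and 0.31 in pool pair 2. These were all positive too, and again higher in pool pair 2, but the mean was 0.21 (SE 0.10, adjusted p 0.528, limma), and -0.15 with no centring, where the median gene stood at -0.36. The 2 Msmo1 clones were the 2 of 4 enzyme clones with 1 sign on all 4 liver arrays, which 19% of clones showed. Averaged per gene, Msmo1 stood at 0.50 with an adjusted p of 0.0996 over genes. In brown adipose tissue clone 23191 read 0.79 and 0.92 and clone 17442 read 0.08 and -0.20, so the clones of 1 gene disagreed there. The mean of clone 23191, 0.86 or 1.81-fold, came from 1 pool pair, has no replicate and was the 19th by size. The description of these 2 brown adipose slides does not match their channel labels, which name both lines and were followed. Of the 4 enzyme clones it was the 1 past 1.5-fold with 1 sign on both arrays, as were 2.27% of all clones, and 2 of 4 (this clone and Lbr) had 1 sign on both arrays, against 62%.

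The crossed arrays of the second design paired pools of unequal number, once each. Clone 23191 read 0.34 with Fob3b pool 1 over F pool 2. With Fob3b pool 2 over F pool 1 it read -0.94. This last value was opposite in sign to all 6 direct arrays of this clone. From the direct and between-pool arrays the same comparisons sum to 0.63 and 0.94. The between-pool arrays gave 0.35 for Fob3b pool 2 over pool 1 and -0.04 for F pool 2 over pool 1. Clone 17442 showed the same order, with 0.20 and -0.43 where the sums were 0.28 and 0.15. The Ggps1 and Lbr clones stood between -0.06 and 0.23 on the crossed arrays. Over all clones the crossed arrays correlated with such sums at r = 0.29 and r = 0.10. With the crossed arrays added as a replicate, Msmo1 clone 23191 in liver averaged 0.42 with a limma adjusted p of 0.705. Why the crossed array differed was not tested, and its channel labels could not be checked without intensities. Exchanged channels would turn its sign.

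**Figure D5:**
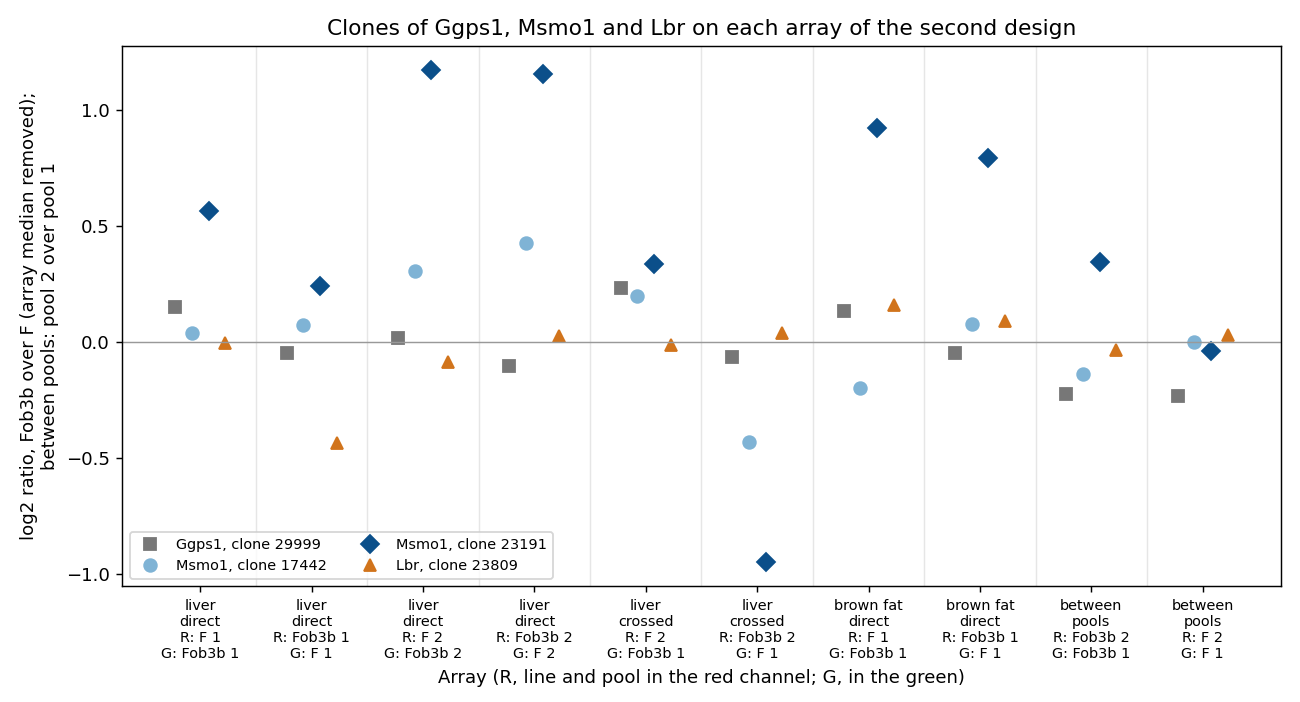
log2 ratios of the 4 enzyme clones on each of the 10 arrays of the second design (x axis, with line and pool in the red and green channels; y axis, Fob3b over F, or pool 2 over pool 1 on the 2 between-pool arrays). Dark blue diamonds, Msmo1 clone 23191, lie between 0.24 and 1.17 on the 6 direct arrays and at -0.94 on 1 crossed array, while Ggps1 and Lbr stay between -0.43 and 0.23.

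Of the rest of the pathway little was measured. Among 12 further synthesis genes listed, Sqle was the 1 on the arrays, and it was not called in either tissue. Of 7 control genes, the second design held 3. Srebf1, which encodes SREBP-1, stood at -0.03 (SE 0.08) in liver and 0.36 in brown adipose tissue. Mbtps1 and Mbtps2, the proteases that release SREBPs from the membrane, had -0.03 and 0.02 in liver (SE 0.08 each) and 0.10 and -0.24 in brown adipose tissue. None of the 3 was called in liver. Over genes, limma called 0% (0 of 3838) in each tissue of the first design and 0.172% (7 of 4075) in liver of the second. Genes of the isoprenoid branches, 5 on the first design, had a median of 0.01 in liver and 0.08 in brown adipose tissue, and 0 of 5 were called in each. On the second design 3 such genes had medians of 0.04 in liver and 0.0017 in brown adipose tissue. Of 10 genes of sterol disposal, Cyp7b1 was measured, at -0.12 in liver and 0.15 in brown adipose tissue.

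Other SREBP target genes, mostly of fatty acid synthesis and with Nsdhl among them, had on the first design a median of -0.08 in liver and 0.49 in brown adipose tissue, with 5 of 6 positive in the latter and 0 called. Scd2, a stearoyl-CoA desaturase, was the highest there at 1.20 (SE 0.25, limma adjusted p 0.806 over genes), and was named after its value was seen. On the second design 1 of 3 was called in liver, against 0.172% of all genes (7 of 4075). It was Fasn, the fatty acid synthase, at 0.63 (SE 0.08, limma adjusted p 0.0147 over genes). Taken by clone, none was called there with each printing block centred, with scaling or with crossed arrays added. Fasn on the first design stood at 0.06 (SE 0.28) in liver and 0.61 (SE 0.28) in brown adipose tissue. In second-design brown adipose tissue (1 pool pair, not tested) it stood at 0.98, and 2 of the 3 genes were positive. The other 2 went opposite ways there, with Me1 at 1.01 and Tmem97 at -0.52. Whether the designs differed was not tested.

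Across the 8 line arrays of the first design the profile of Fdft1 was set against 3829 other genes. Sdhd (r = 0.98), Atp5h (r = 0.98) and Pgam1 (r = 0.97) were most like it. Of the other enzymes Mvd had r = 0.80, Dhcr7 0.77, Lss 0.72, Idi1 0.71, Hmgcs1 0.48 and Ggps1 0.34, while Nsdhl had -0.24 and Lbr -0.37. Sqle, at r = 0.70, stood 580th of the genes that are not members. On the second design, over 6 arrays, Zfc3h1 (r = 0.99), Pnrc2 (r = 0.96) and Hmgn1 (r = 0.96) were most like Msmo1, with 0.38 for Lbr and -0.39 for Ggps1. All points share pools and slides, and Fdft1 and Mvd also share a printing block. Blocks were not centred for these correlations. The dye orientations were not averaged here, so dye parts enter r along with line parts, and their shares were not tested. These correlations are therefore descriptions.

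Slides were of unequal quality. On the first design the 2 spots of a clone correlated at 0.760 to 0.932 over clones, and printing blocks accounted for 12.6% to 74.1% of the variance. On the second these were 0.636 to 0.865 and 6.61% to 46.8%. Fdft1 and Mvd were printed in the same block, the other enzymes of that design in separate ones. Without intensities no signal over background could be given, and the number of arrays limits the precision.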

How the data were processed

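The deposited values are log2 ratios of the 2 dyes, 1 per spot and array, as taken here from their range. The log base, the numerator and every step by which the authors made them, normalization included, were not given in the sources used here. A natural logarithm is possible, and folds depend on base 2. Line, pool and dye came from the channel labels. These were followed for 3 slides whose description differed, the 2 brown adipose slides of the second design and the Fob3b self-self slide. The 17280 spots of a design (48 blocks of 360) were paired at a distance of 160 rows into 7680 clones. The 1920 control spots were left out. Genes came from the annotation supplied for the platforms, which gave 1 gene for 4749 clones of the first design and 4855 of the second.

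Each array was centred on the median over the single spots of its clones. Both dye orientations of a pool pair were averaged. Both tissues of a design were fitted together with limma 3.58.1 in R 4.3.3 (two-sided, moderated variance, 2 and 1 residual degrees of freedom). The brown adipose pool pair of the second design was not tested. For it, clones past 1.5-fold were counted. The steps were tested on simulated data. Alternatives were no centring, block centring, scaling, gene means, single arrays, tissues alone, robust variance, the pool number as a block, added crossed arrays and leave-outs.

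All clones of the enzymes are named, and of the lists every further synthesis and SREBP control gene. The enzymes and lists were chosen with earlier results of these data known. Fasn, Scd2, Me1, Tmem97, Cyp7b1 and the cell type markers were named after their values were seen.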

Additional observations from a re-analysis of the deposited data

Results flagged for a closer look

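Hmgcs1 on the brown adipose array of pool pair 1 with Fob3b in red, on the first design, stood at -0.49, apart from the other 3 arrays between -0.13 and -0.09. It was the 1 array apart by Dixon's test among 22 groups of 4 arrays of the enzyme clones, and chance gives about 1 in 20. Msmo1 clone 23191 on the crossed array of Fob3b pool 2 against F pool 1 stood at -0.94, larger in size than the 0.35 that was the most this clone reached between pools of 1 line.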

How the results depend on the processing

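Without centring the median of all genes stood at -0.11 (liver) and 0.30 (brown adipose) on the first design, 0.42 for their difference, and -0.36 and -0.33 on the second. Relative to 0, first-design liver Fdft1, Lss and Ggps1 then had -0.014, -0.034 and -0.070, brown adipose Nsdhl, Ggps1 and Hmgcs1 0.17, 0.060 and 0.066, and the tissue difference of Ggps1 0.13. On the second design liver Msmo1 clone 17442 had -0.15 and Ggps1 -0.36, and the enzyme medians were -0.36 in liver and -0.23 in brown adipose tissue. Clones called were then 1 in first-design brown adipose tissue, 159 in second-design liver and 1283 past 1.5-fold in brown adipose tissue, with 0 enzyme clones among these. Block centring turned Ggps1 in liver (-0.052 first, -0.0090 second design) and the tissue difference of Nsdhl (-0.20), and left 0 clones called in second-design liver and 113 past 1.5-fold in brown adipose tissue. Scaling left 0 and 61, and gene means 7 and 62 with 0 enzymes past 1.5-fold. With every array its own replicate 2 clones passed in second-design liver, and with crossed arrays 0. Fitting brown adipose tissue alone, with 1 residual degree of freedom, gave 4 clones, 1 of them an enzyme (Fdft1). Robust variance changed no enzyme's call. The cause of these changes was not tested.

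With pool pairs or arrays left out 1 at a time (a lone pool pair is assumed to vary like the others), clones called ran from 0 to 140 in first-design liver (enzymes 0 to 1), 0 to 1 in brown adipose tissue, 0 to 95 for the tissue difference (enzymes 0 to 2), 0 to 202 in second-design liver (enzymes 0 to 1) and 142 to 498 past 1.5-fold in brown adipose tissue. Liver values on the first design ran from -0.52 to 0.90 for Dhcr7, -0.40 to 0.25 for Lbr, -0.38 to 0.53 for Fdft1, -1.22 to 0.86 for Idi1, -0.23 to 0.0083 for Nsdhl, -0.34 to 0.45 for Lss, -0.059 to 0.097 for Ggps1 and -0.65 to 0.12 for Hmgcs1. Tissue differences ran from -0.40 to 1.02 for Dhcr7, -0.20 to 0.83 for Lbr, -0.18 to 0.37 for Mvd, -0.39 to 1.69 for Idi1, -0.38 to 0.40 for Nsdhl and -0.33 to 0.44 for Hmgcs1. Brown adipose values ran from -0.27 to 0.75 for Lbr and -0.49 to 0.29 for Nsdhl, and second-design liver Ggps1 from -0.043 to 0.056. In brown adipose tissue Fdft1 kept its sign under all 13 alternatives, from 0.56 to 1.46, as did Mvd, Idi1, Lss and Dhcr7. Gene means, single arrays, the tissue alone and robust variance could not change these estimates. Idi1, Lss and Dhcr7 were positive on every array there, so no leave-out could turn them. In second-design liver Msmo1 clone 23191 kept its sign under all 14, from 0.40 to 1.16. It was positive on every direct array, so leave-outs could not turn it either. Second-design pool pairs left out 1 at a time gave values with no test.

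The labels do not tie liver and brown adipose pools of 1 number to the same animals. Their deviations from the tissue means correlated at r = 0.38 over clones. With the pool number as a replicate block (1 residual degree of freedom) the tissue difference had 0 clones called, 0 enzymes, 491 at an unadjusted p under 0.05, a median over the enzymes of 0.31, and Fdft1 at 0.93 with an adjusted p of 0.739. Without intensities, dim spots could not be told from bright ones.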
